A study of Mus musculus with 33 samples.

Results

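In HC11 cells, a mouse mammary epithelial cell line, 58 of 22853 genes in the table of the guide RNA libraries were all but silent in 1 guide arm and clearly present in the other. The arms carried the guide labelled sgScr (2 libraries) or the guide labelled sgTrps1 (2 libraries), and each arm used 1 guide. A gene was taken when its normalized count was 2 or less in both libraries of an arm and 20 or more in both libraries of the other arm. The rule found 29 genes silent in sgScr and 29 silent in sgTrps1, which is 0.249% in each direction of the 11663 genes that reached 20 in both libraries of an arm, and 0.497% in either. The members were chosen by the normalized counts of these 4 libraries, so the arms' values are given as a description and carry no test.

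The other libraries of the study were used as readouts that played no part in the choice. HC11 cells whose labels name no guide were treated with the vehicle DMSO (3 libraries) or with 300 nM trichostatin A for 24 hours (3 libraries). Primary mammary organoids received AdCre, an adenovirus that carries the Cre recombinase and so deletes floxed alleles (written F), and were harvested after 14 or 28 days. One genotype, Cdh1F/F;Trps1+/+, kept Trps1. Both other genotypes had floxed Trps1 and were Cdh1F/F;Trps1F/F or Cdh1+/F;Trps1F/F. Each genotype had 2 libraries per day, and every organoid carried at least 1 floxed copy of Cdh1, the gene of E-cadherin. Mammary tumors came from WAP-cre;Cdh1F/F;Trps1F/F mice (8 tumors of 6 mice) and WAP-cre;Cdh1F/F;Trps1+/+ mice (3 tumors of 3 mice). The WAP promoter drives Cre in milk-producing mammary epithelium, and all of these mice were Cdh1F/F. The labels used here give neither the ages of the mice nor whether a guide arm was a pool or a clone.

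TRPS1 is a zinc finger protein of the GATA type that represses transcription together with histone deacetylase complexes, and it is abundant in mammary epithelium. Trichostatin A inhibits histone deacetylases. A gene can be held off by repressive chromatin or by methylated DNA at its start, states that dividing cells can pass to their daughters. In a bulk sample, fewer cells that use a gene and less RNA per cell cannot be told apart.

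Reads per library ran from 21346514 to 38708003 in the guide arms, from 17788566 to 25585997 with DMSO or trichostatin A, from 14833245 to 30305818 for organoid samples and from 18304633 to 24192323 for tumors. In the guide arms 1 read was worth 0.517 to 0.919 normalized counts, so the limit of 2 allowed at most 3 reads in a library. Trps1 mRNA was about equal in the arms, at 14212 and 15186 in sgScr and 14786 and 15418 in sgTrps1, and therefore does not check the labels; a guide acts on the DNA and need not lower the mRNA. The epithelial gene Epcam was at 3356 and 2958 in sgScr and 1206 and 1176 in sgTrps1, and the leukocyte gene Ptprc had no reads in the 4 libraries. Summed basal epithelial markers (12 genes) were at 50401 to 57284 in sgScr and 105433 to 106739 in sgTrps1. Single basal markers went both ways. Of the 8 clearly present in an arm, 3 had a log2 difference (sgTrps1 minus sgScr) above 1 and 1 below -1. Their median was 0.49. The keratin gene Krt5 was at 7683 and 6486 in sgScr and 45141 and 45210 in sgTrps1. Krt14 was at 10582 and 9114 against 24335 and 24710. Summed luminal markers were at 29361 to 30232 in sgScr and 30780 to 30905 in sgTrps1. The part of these marker differences in the silent genes was not tested.

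Most silent members were silent to the last few reads. Of the 29 genes silent in sgScr, 10 had no read in either sgScr library, 14 had 1 to 3 reads over both and 5 had more, at most 5. Of the 29 silent in sgTrps1, 10 had no read, 8 had 1 to 3 and 11 had more, again at most 5. Where present, the former ran from 21.1 to 763 normalized counts with a median of 36.5, and the latter from 23.5 to 775 with a median of 54.5; 5 and 7 of them exceeded 100. All 58 are protein-coding in GENCODE M21. They were spread over the genome, with at most 6 on a chromosome (4 and 10) and none on chromosome 14, which holds 377 of the genes that could be members.

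**Figure D1:**
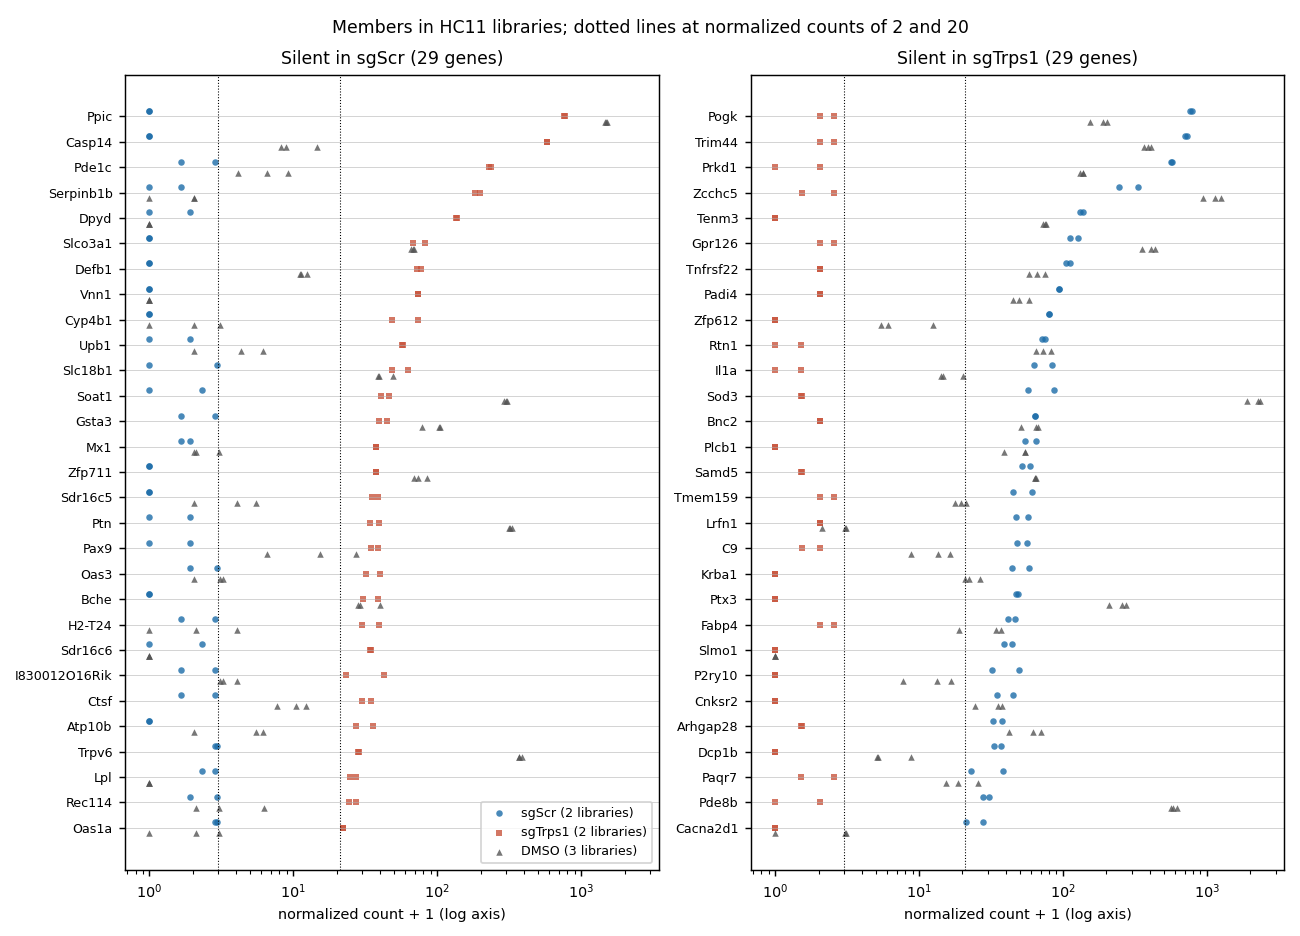
Normalized count plus 1 (log axis) of each silent gene in the 2 sgScr, 2 sgTrps1 and 3 DMSO libraries of HC11 cells; 1 point per library, dotted lines at normalized counts of 2 and 20. DMSO libraries lay at 20 or more for 9 of the 29 genes silent in sgScr and for 17 of the 29 silent in sgTrps1.

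The genes silent in sgScr are given in the order of their level in sgTrps1. Ppic, which encodes cyclophilin C, a protein-folding isomerase (chromosome 18, 53406332 to 53418115, GRCm38), had 0 reads in both sgScr libraries and normalized counts of 770.5 and 756 in sgTrps1, at least 665-fold higher against a floor of 3 reads over the arm. Casp14, the caspase of cornifying skin cells (chromosome 10, 78711991 to 78718294), had 0 reads in sgScr and stood at 580.1 and 579.5 in sgTrps1, at least 505-fold higher. Pde1c, a calmodulin-dependent phosphodiesterase (chromosome 6, 56069804 to 56569103), was at 0.655 and 1.84 in sgScr and 227 and 237 in sgTrps1, a ratio of 202 (exact 95% counting interval 69.0 to 983). These intervals cover counting error only, since reads were not marked as single molecules.

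Next by level came Serpinb1b, an intracellular protease inhibitor of the serpin B clade, at 0.655 and 0 in sgScr and 183 and 198 in sgTrps1. Dpyd, which starts the breakdown of pyrimidines, was at 0 and 0.919 against 135 and 133. Upb1, the last enzyme of the same breakdown pathway, was at 0 and 0.919 against 55.4 and 56.9. Both are members of the same arm by the rule, and no list of that pathway was tested. Slco3a1, an organic anion transporter, had 0 reads against 81.2 and 67.2. The defensin gene Defb1 had 0 against 70.7 and 76.5, and the pantetheinase gene Vnn1 had 0 against 72.2 and 72.9. Every sgTrps1 value of these genes lay far above every sgScr value, as the rule required.

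The genes silent in sgTrps1 follow in the order of their level in sgScr. Pogk, a KRAB-domain protein derived from a pogo transposon (chromosome 1, 166384622 to 166409863), was at 758.5 and 791 in sgScr and 1.05 and 1.55 in sgTrps1, a ratio of 591 (253 to 1823). Trim44, a tripartite-motif protein (chromosome 2, 102300119 to 102407828), was at 702 and 720.1 against 1.58 and 1.03. Prkd1, the gene of protein kinase D1 (chromosome 12, 50341231 to 50649098), was at 559 and 571 against 1.05 and 0. The Gag-like gene Zcchc5, now named Rtl3, was at 331 and 243 against 0.527 and 1.55. Tenm3, a teneurin of cell adhesion, was at 129.7 and 136 with 0 reads in both sgTrps1 libraries. The 2 libraries of an arm agreed closely for these high members, with Zcchc5 spread the widest.

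The adhesion receptor Gpr126 followed at 126 and 110.2 in sgScr, the decoy death receptor Tnfrsf22 at 111 and 104, the protein-citrullinating enzyme Padi4 at 93.0 and 92.8, and the zinc finger gene Zfp612 at 79.3 and 79.0 with 0 reads in sgTrps1. The secreted superoxide dismutase Sod3 was at 85.2 and 56.0, the reticulon Rtn1 at 74.0 and 70.7, and the cytokine Il1a at 61.6 and 82.7; each had at most 2 reads over the sgTrps1 arm. In length-blind counts these levels rank libraries for 1 gene and not genes against each other.

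Members just inside the limit of 20 were Oas1a (lowest value 21.1 where present), Rec114 (23.2) and Lpl (23.7) for sgScr, and Cacna2d1 (20.2), Paqr7 (22.0) and Pde8b (26.6) for sgTrps1. Just outside it lay Gsdma (19.5), Ntn4 (18.1) and Mpped2 (18.1), and Irs4, Ccdc149 (17.5) and Eya1 (17.0). Just above the limit of 2 in the silent arm lay Plagl1, Oas2 and Tmprss11b, each with a highest sgScr value of 2.62, and Osbp2, Col1a2 and Fam46a, each at 2.07 in sgTrps1. The limits therefore cut through a continuous range of values.

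The promoters of 41 of the 58 members (19 silent in sgScr, 22 silent in sgTrps1) have an entry in the RefSeq promoter table (GRCm38.p6). That is under 80%, so a comparison of base composition or motifs over the members is void and none is given. The 250 bases before the RefSeq start are shown for 1 member of each arm, as examples that differ in their content of CpG. Each is among the 2 highest of its arm, and its RefSeq start lies at the 5′ end of its gene model. Windows of the 22 genes silent in sgTrps1 run from 0 to 39 CpG, so 1 window does not stand for its arm. Capitals mark CpG dinucleotides, the sites of DNA methylation. The windows are chr10:78718294-78718543, minus strand, for Casp14 and chr1:166409829-166410078, minus strand, for Pogk.
Casp14: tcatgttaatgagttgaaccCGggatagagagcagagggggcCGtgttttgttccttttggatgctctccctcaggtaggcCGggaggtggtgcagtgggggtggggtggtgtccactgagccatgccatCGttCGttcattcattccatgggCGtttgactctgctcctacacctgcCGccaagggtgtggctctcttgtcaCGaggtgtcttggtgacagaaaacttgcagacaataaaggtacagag
Pogk: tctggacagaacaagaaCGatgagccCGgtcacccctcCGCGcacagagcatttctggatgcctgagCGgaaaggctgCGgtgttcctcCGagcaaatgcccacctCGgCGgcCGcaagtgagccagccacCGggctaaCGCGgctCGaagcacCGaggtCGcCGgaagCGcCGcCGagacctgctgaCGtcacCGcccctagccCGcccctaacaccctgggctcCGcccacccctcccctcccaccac
The Casp14 window holds 8 CpG and the Pogk window 24, against a median of 6 over all 27025 windows of this length in the table and of 16 over the 9170 genes with an entry that could be members. The letters bound by GATA-type fingers were searched on both strands as AGATAA and, with another last letter, as AGATAG, and likewise as TGATAA and, with another last letter, as TGATAG. Neither window holds any of them, while 27.1% of all windows do, and 16.1% of those of the 9170 genes that could be members. This says only that these letters are not in these windows.

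Within 1 Mb of each other lie 4 pairs of members, and the number of such pairs among other genes was not counted. Vnn1 and Slc18b1, a vesicular polyamine transporter, are 66.7 kb apart on chromosome 10. Sdr16c5 and Sdr16c6, which encode short-chain dehydrogenases, are 36.3 kb apart on chromosome 4. The antiviral genes Oas3 and Oas1a are 119 kb apart on chromosome 5, and Zcchc5 and the lysophospholipid receptor gene P2ry10 are 248 kb apart on chromosome X. In each of these 4 pairs both genes were silent in the same arm.

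Genes within 250 kb of a member are described from the same 4 libraries that chose the members, so their values give no independent support. Near the genes silent in sgScr, 109 neighbours that are not members had a median log2 difference (sgTrps1 minus sgScr) of 0.28, with 23 above 1 and 4 below -1. Near the genes silent in sgTrps1, 87 neighbours had a median of -0.12, with 2 above 1 and 11 below -1. Beyond 1 in either direction lay 24.8% and 14.9% of them, against 12.2% of all located genes that could be members (median 0.02). In both directions together the second share lies near that of all genes. By direction, 710 of all 11538 located genes lay above 1 and 701 below -1, nearly even. The neighbours leaned in each arm to the side of their members. Serpinb6b, near Serpinb1b, had the highest of these values at 7.68, and Padi3, 11.1 kb from Padi4, the lowest at -5.67. These pairs belong to families of close paralogs, and reads of near copies may be shared between them. Mx2 near Mx1, and Oas2, Oas1b and Oas1c near Oas3, also lay above 1 and share a family name with the member. Pogk, Ptx3, Upb1, H2-T24 and Rec114 overlap another expressed gene on the opposite strand (Tada1, Veph1, Gucd1, A930015D03Rik and Nptn). In the arm where the member was silent, these partners had means of 364, 4.97, 324, 301 and 5722, in this order. The sources used here do not say whether counting used the strand, and whether reads were shared between such partners was not tested.

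The list of interferon response genes held 4 members, all silent in sgScr. Mx1, an antiviral GTPase, was at 0.655 and 0.919 in sgScr and 36.4 and 36.7 in sgTrps1. Oas3 was at 1.97 and 0.919 against 31.1 and 38.8, Oas1a at 1.97 and 1.84 against 21.1 and 21.2, and I830012O16Rik, now named Ifit3b, at 0.655 and 1.84 against 22.1 and 41.4. Of the 32 other genes of the list that reached 20 in both libraries of an arm, 27 were more than 1 log2 unit higher in sgTrps1 and none was as much lower, with a median of 2.47 against 0.02 for all 11663 genes, of which 719 were above 1 and 719 below -1. In the serpin B clade, whose member was Serpinb1b, 6 of the 9 others were above 1 and none below -1 (median 2.28). Among the NF-kB cytokines and chemokines, whose member was Il1a, 6 of the 12 others were below -1 and none above 1 (median -1.32). Pogk was the member of the list of retroelement restriction and KRAB machinery, whose 17 others had a median of -0.10. The other 7 lists of pathways or families held no member. All of these values come from the same 4 libraries that chose the members, so they give no independent support. The lists, too, were chosen with earlier results of these data known.

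The DMSO libraries gave a level in HC11 cells outside both guide arms, beside which each arm was set to see which of them was the unusual one. Their table was normalized separately and counted on another gene list (26230 genes), so levels are set side by side without a test. All 58 members had a row there, 1 of those silent in sgScr and 3 of those silent in sgTrps1 by an older symbol. With the limits of 2 and 20, genes silent in sgTrps1 were mostly present in the 3 DMSO libraries (17 present, 11 between, 1 silent), with a median DMSO level of 49.8. Genes silent in sgScr were split (9 present, 15 between, 5 silent), with a median of 3.54. In the DMSO libraries 1 read was worth 1.02 to 1.12 normalized counts. The limit of 2 thus allowed at most 1 read per library there and was stricter than in the guide arms. On the log2 scale the DMSO mean was nearer to the arm that had the gene for 25 of 29 genes silent in sgTrps1 and for 12 of 29 silent in sgScr. Without the first DMSO library, 8 instead of 5 of the genes silent in sgScr counted as silent.

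**Figure D2:**
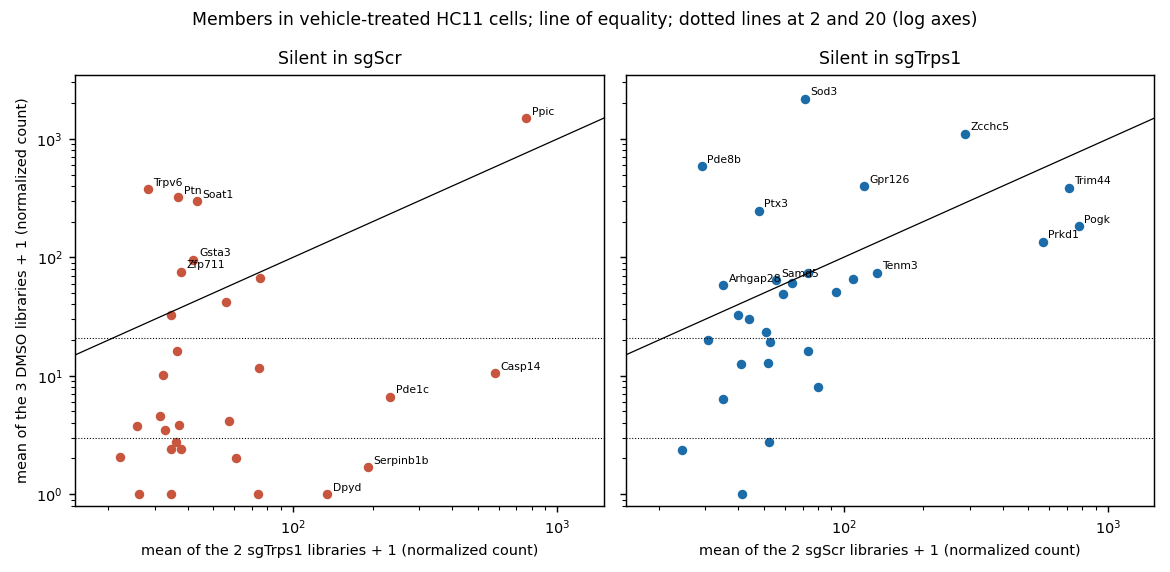
Mean of the 3 DMSO libraries plus 1 against the mean of the arm that has the gene plus 1, in normalized counts on log axes, for genes silent in sgScr (left) and in sgTrps1 (right); solid line of equality, dotted lines at 2 and 20. More genes silent in sgScr (5) than in sgTrps1 (1) fell at or below 2 in all 3 DMSO libraries.

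For a first group, sgScr was the arm that differed from DMSO. Ppic was at 1467, 1511 and 1493 in DMSO, above its sgTrps1 level. Slco3a1 was at 66.5, 68.3 and 64.6, about its sgTrps1 level, and Slc18b1 at 48.1, 38.0 and 37.5. Soat1, the enzyme that esterifies cholesterol, was at 302, 288 and 301 in DMSO against 44.8 and 39.8 in sgTrps1. The calcium channel gene Trpv6 was at 367, 368 and 386 against 26.9 and 27.4, and the growth factor gene Ptn at 315, 317 and 327 against 33.2 and 38.3. In these last 3 genes sgTrps1 too lay far below DMSO. Gsta3, a glutathione transferase, stood at 76.7, 104 and 101, the zinc finger gene Zfp711 at 67.5, 72.7 and 83.4, and Bche, the gene of butyrylcholinesterase, at 38.9, 28.0 and 27.1.

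For a second group, DMSO resembled sgScr, and sgTrps1 was the arm that differed. Dpyd, Vnn1, Sdr16c6 and Lpl, the gene of lipoprotein lipase, had 0 reads in all 3 DMSO libraries. Serpinb1b was at 1.02, 0 and 1.04 there, against 183 and 198 in sgTrps1. Casp14 was at 7.16, 7.83 and 13.6 and Pde1c at 8.18, 5.59 and 3.13, both far below their sgTrps1 levels. The 4 interferon-response members were at 3.07 or less in every DMSO library.

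Genes silent in sgTrps1 had DMSO levels on both sides of their sgScr level. Pogk was at 203, 153 and 189.7 in DMSO, Trim44 at 366, 407 and 389.8, Prkd1 at 137, 138 and 130.3, and Tenm3 at 74.7, 71.6 and 74.0, all below sgScr. Rtn1 (71.6, 63.8 and 81.3), Plcb1, a phospholipase C (53.2, 38.0 and 53.2), and Bnc2, a zinc finger gene (50.1, 66.0 and 63.6), were close to it. Sod3 was at 1887, 2279 and 2341 in DMSO, far above its 85.2 and 56.0 in sgScr. The phosphodiesterase gene Pde8b stood at 577, 621 and 558 against 29.5 and 26.6, and Ptx3, a secreted pentraxin, at 207, 257 and 274 against 45.9 and 47.8. In all, the 3 DMSO libraries lay above all 4 guide libraries for 6 genes silent in sgScr and 7 silent in sgTrps1. Slmo1 was the reverse case, with 0 reads in the 3 DMSO libraries and in sgTrps1 against 43.2 and 37.7 in sgScr.

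DMSO cells differed from both arms in many genes that are not members. Of 20733 genes in both tables, 87 were present in DMSO and silent in both arms, among them Krt18, an epithelial keratin at 104 to 134 in DMSO and at 0, 0, 0.527 and 0 in the guide libraries; in the other direction, 24 were silent in DMSO and present in both arms. Summed fibroblast markers were at 5500 to 5811 in DMSO (11 of 12 listed genes in that table) against at most 105 in sgScr and 47.0 in sgTrps1 (10 in that table). The part of these differences between the tables in the members' DMSO levels was not tested.

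Trichostatin A changed members of both arms in both directions. Most genes changed in this comparison: 85.2% of 13035 tested genes were called (43.6% rose, 41.6% fell), by limma with Benjamini-Hochberg adjusted p under 0.05. Of the genes silent in sgScr, 13 of 29 passed the filter on low values, and 5 rose and 6 fell. Of those silent in sgTrps1, 25 of 29 passed, and 10 rose and 11 fell. The share of called members, 32 of 38, lies near the background. The median log2 difference was -0.43 for the former and -0.51 for the latter, against 0.02 over all genes. A member could pass through its treated libraries alone, so these counts describe only the members that passed.

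Ctsf, a lysosomal protease, went from 11.3, 6.71 and 9.38 in DMSO to 141, 156 and 147 with trichostatin A, a log2 difference of 3.91 (SE 0.205, adjusted p = 3.67e-09). Arhgap28 went from 69.6, 41.4 and 60.5 to 396, 391 and 383 (log2 difference 2.78, SE 0.16, adjusted p = 1.03e-08). The fatty acid carrier gene Fabp4 rose from 35.8, 17.9 and 33.4 to 205, 177 and 160.1 (2.65). The treated and control libraries of these genes did not overlap, and the share of all genes for which this held was not counted. Cacna2d1, a calcium channel subunit, and the synaptic adhesion gene Lrfn1 rose by 3.11 and 2.38 from levels of at most 2 reads in DMSO.

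The widest fall was that of Zcchc5, from 1243, 1140 and 938 to 24.0, 21.1 and 19.8 (log2 difference -5.61, SE 0.13, adjusted p = 3.59e-12). Gsta3 fell by 3.58 on the log2 scale, with 5.28 and 4.94 in the lowest treated libraries, Sod3 went from 1887, 2279 and 2341 to 286, 237 and 254 (-3.06), and Ptn from 315, 317 and 327 to 52.4, 49.0 and 53.4 (-2.61). Defb1 fell by 2.56 on the log2 scale, to 3.27 or less. Ppic, the highest member of its arm, fell from 1467, 1511 and 1493 to 573, 595 and 622 (-1.32), while Soat1 rose by 1.49. Of the 2 highest genes silent in sgTrps1, Pogk changed by -0.66 and Trim44 by -0.72, and both were called. Their libraries, too, did not overlap between treatments, again without a count over all genes.

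**Figure D3:**
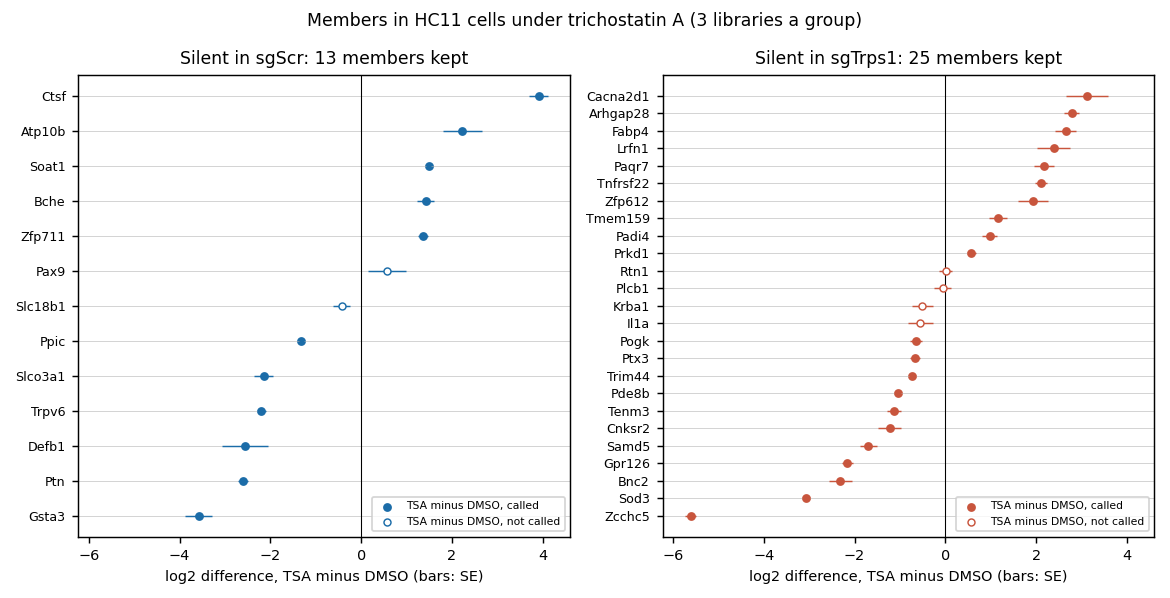
Log2 difference (trichostatin A minus DMSO, 3 libraries each) with its SE for the members that passed the filter, by the arm in which they were silent; filled points have an adjusted p under 0.05. Called members lay on both sides of 0 in each arm, from -5.61 for Zcchc5 to 3.91 for Ctsf.

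Of the 20 members that did not pass the filter, 16 are genes silent in sgScr, among them Casp14 (3.27, 3.77 and 2.96 when treated), Pde1c, Serpinb1b, Dpyd, Vnn1 and the interferon-response members. With no filter on low values, 9 rather than 5 genes silent in sgScr rose. With quantile normalization Atp10b, Lrfn1 and Tmem159 lost their calls (limma adjusted p = 0.0698, 0.312 and 0.0779). Summed basal epithelial markers were lower with trichostatin A (57839 to 60073, against 124860 to 145613 in DMSO). Summed fibroblast markers were lower too (920 to 1024, against 5500 to 5811). Single markers went both ways. Of 12 tested basal markers 4 rose and 7 fell, and of 6 tested fibroblast markers 2 rose and 3 fell. The part of these markers' cell types in the members' changes was not tested.

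In organoids most members were present in every library, and the same share over all genes was not counted. Rec114 (8.73 or less) and Cnksr2 (16.0 or less) did not reach 20 in any library. A normalized count of 20 or more in all 12 libraries was reached by 20 of 29 genes silent in sgScr and 22 of 29 silent in sgTrps1, and no member was at 2 or less in all of them. Several stood high: Lpl ran from 1333 to 51387 over the 12 libraries, Ptx3 from 2317 to 5515, and Trim44 from 3331 to 4179. Trim44 thus varied little here, while it was at 1.58 and 1.03 in the sgTrps1 cell line.

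Loss of Trps1 in Cdh1F/F organoids was compared with Cdh1F/F;Trps1+/+ at each day, with limma on all 12 libraries. Genes silent in sgTrps1 mostly fell when they changed: 13 fell and 4 rose of 29 at day 14, and 14 fell and 5 rose at day 28. Genes silent in sgScr went both ways: 10 rose and 9 fell of the 28 that passed the filter at day 14, and 10 rose and 8 fell at day 28. The background was 32.4% of 15860 genes called at day 14 (14.5% rose, 17.9% fell) and 43.2% at day 28 (19.9% rose, 23.4% fell). At both days, 9 genes silent in sgScr rose and 5 fell; 11 silent in sgTrps1 fell at both and 2, Padi4 and Pogk, rose at both. Over all genes, 7.7% rose and 11.4% fell at both days. The median log2 differences were -0.11 and 0.24 for genes silent in sgScr, and -0.46 and -0.33 for those silent in sgTrps1, against -0.01 and -0.04 for all genes. Both days share no library, but they were fitted in 1 model.

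Stromal and epithelial markers moved with this genotype difference. Summed fibroblast markers (12 genes, none at 0 throughout) were at 98404 to 105883 in Cdh1F/F;Trps1+/+ and 25896 to 26674 in Cdh1F/F;Trps1F/F at day 14, and at 28369 to 43962 and 11021 to 12062 at day 28; 12 and 10 of the 12 fell. Of 10 skeletal muscle markers 9 and 10 fell, and of the 8 tested macrophage and leukocyte markers 7 and 6 fell. Of 15 luminal markers 12 and 10 rose. The part of these cell types in the members' changes was not tested.

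Among genes silent in sgScr, the neighbours Sdr16c6 and Sdr16c5 had the largest rises at day 14, and Sdr16c6 and Bche at day 28. Sdr16c6 was at 9.96 and 7.11 in Trps1+/+ and at 139 and 190.1 in Trps1F/F organoids at day 14, a log2 difference of 4.12 (SE 0.26, limma adjusted p = 2.28e-07), and at 10.1 and 11.4 against 127 and 75.7 at day 28 (3.07). Sdr16c5 was at 9.96 and 8.89 against 61.1 and 51.4 (2.45), then at 13.5 and 9.68 against 46.5 and 35.3 (1.74). Vnn1 was at 104 and 88.9 against 359 and 437 (2.03), then at 137 and 74.8 against 501 and 397 (2.13). Bche was at 79.7 and 78.3 against 286 and 329.7 (1.95), then at 81.8 and 63.4 against 501 and 404 (2.63). No library of these 4 genes overlapped between the genotypes at either day. With 2 libraries against 2 that is a weak criterion, and its share over all genes was not counted. Upb1 rose by 1.48 and 1.03. Casp14 was called at both days (1.04 and 0.60), but the second call had an adjusted p of 0.0499 and was lost in 12 of the alternative fits.

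Falls in this arm included Lpl, at 18389 and 18954 against 3303 and 3955 at day 14 (-2.37) and at 4396 and 7968 against 1333 and 2085 at day 28 (-1.83). Ptn was at 271 and 335 against 71.5 and 64.0 (-2.14), then at 609 and 513 against 323 and 229.6 (-1.03). I830012O16Rik fell by 1.73 and 2.00 on the log2 scale, and Mx1 by 0.77 and 0.91. Oas3 and Oas1a fell at day 28 (-1.97 and -1.14), with -0.795 and -0.64 at day 14, where neither was called. In the whole interferon list 35 of 41 tested genes fell at day 14 and 36 at day 28, and none rose, in the opposite direction to the guide arms.

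Among genes silent in sgTrps1, Rtn1 was at 53.8 and 48.0 in Trps1+/+ and 2.82 and 4.85 in Trps1F/F organoids at day 14 (log2 difference -3.45, SE 0.35, limma adjusted p = 1.07e-05), and at 37.8 and 49.3 against 3.10 and 6.31 at day 28 (-3.01). Zcchc5 was at 117 and 169.9 against 20.7 and 27.2 (-2.52), then at 57.4 and 73.0 against 7.23 and 3.78 (-3.39), and its chromosome X neighbour P2ry10 fell by 2.21 and 3.81. Tenm3 was at 115 and 97.8 against 33.9 and 23.3 (-1.88), then at 132 and 229 against 23.7 and 27.7 (-2.71). These genes were lower in every Trps1F/F library than in either Trps1+/+ library of the same day, a description for which all genes were not counted. Fabp4 (-1.93 and -2.17), Sod3 (-2.09 and -2.68), Plcb1 (-1.06 and -1.11) and the complement gene C9 (-1.30 and -1.03) also fell at both days. The 2 Trps1+/+ libraries of day 28 differed widely for Sod3, at 553 and 2039.

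Padi4 went the other way, at 50.8 and 47.1 against 377 and 415 at day 14 (2.99, SE 0.19, limma adjusted p = 1.86e-07) and at 62.2 and 59.8 against 201 and 225 at day 28 (1.78). Pogk rose by 0.27 and 0.30. Trim44 and Prkd1, silent in the sgTrps1 cell line, were not called: their log2 differences were -0.02 (SE 0.08) and -0.06 (SE 0.20) at day 14 and 0.13 (SE 0.08) and 0.03 (SE 0.20) at day 28.

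Between the days, the difference between Cdh1F/F;Trps1F/F and Cdh1F/F;Trps1+/+ was called as changed for 12 of the 57 members that passed the filter. That share lies near the background of 17.9% of genes. The log2 difference was higher at day 28 for 4 genes silent in sgScr and 4 silent in sgTrps1 (background 8.22% of genes). It was lower for 1 and 3 (background 9.72%).

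**Figure D4:**
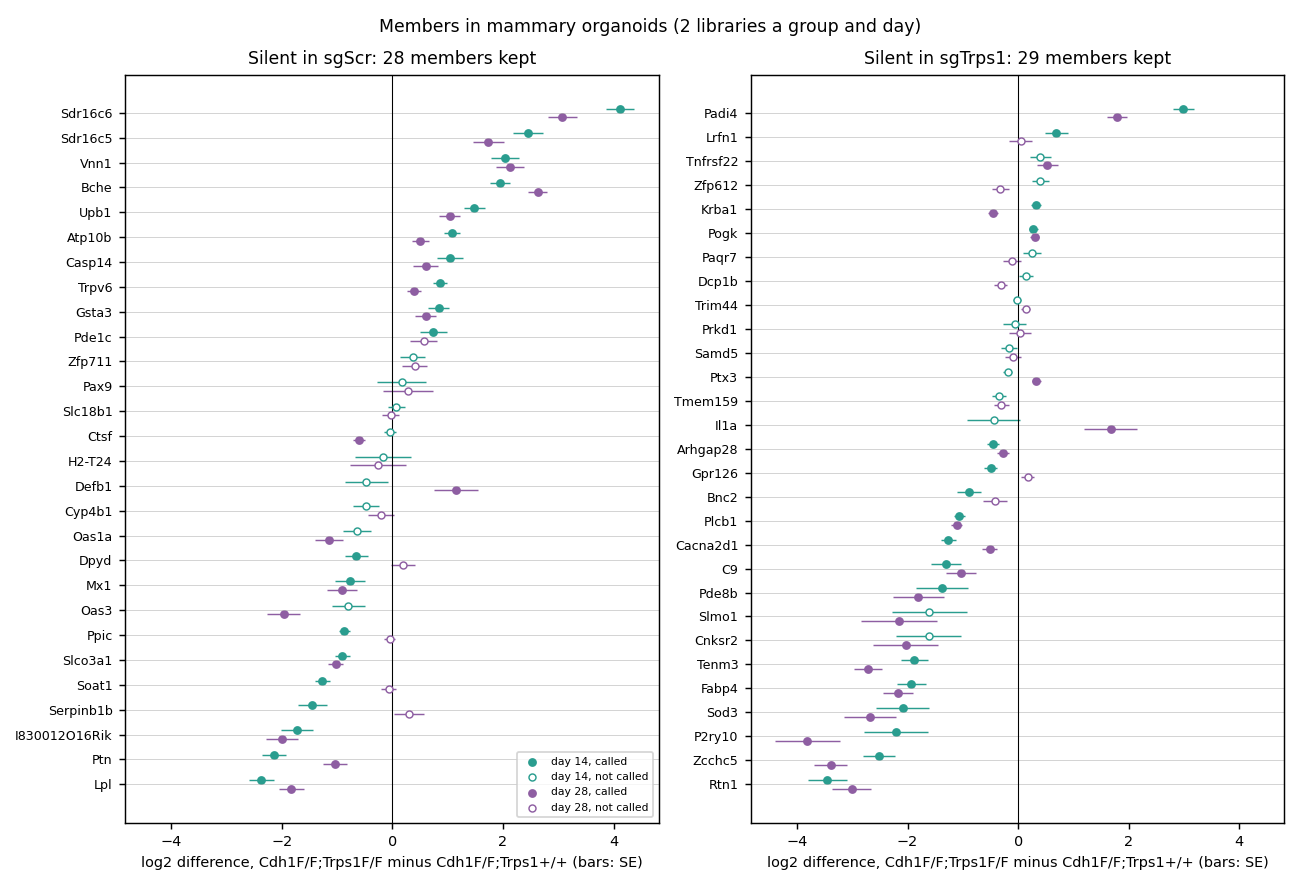
Log2 difference (Cdh1F/F;Trps1F/F minus Cdh1F/F;Trps1+/+ organoids, 2 libraries each) with its SE at day 14 and day 28 for the members that passed the filter; filled points have an adjusted p under 0.05. The genes silent in sgTrps1 run from 2.99 for Padi4 at day 14 to -3.81 for P2ry10 at day 28.

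The Cdh1+/F;Trps1F/F organoids differ from Cdh1F/F;Trps1+/+ in both genes, and their levels are given without a test. Summed fibroblast markers in them were at 662876 to 750795 at day 14 and 368509 to 438248 at day 28, above every Cdh1F/F library, and the part of this in the members' levels was not tested. Sdr16c6 was at 271 and 293 at day 14 and at 1063 and 921 at day 28, above all Cdh1F/F libraries at both days. Tenm3 was at 801 and 723 and then at 1078 and 888, where the Trps1F/F organoids with Cdh1F/F were at 33.9 or less. Padi4 was at 72.6 and 72.2 and then at 31.5 and 40.9, below the Cdh1F/F;Trps1F/F libraries. Defb1 was at 12.04 or less in these 4 libraries and at 317 or more in the 8 Cdh1F/F libraries. The genotypes with floxed Trps1 thus lay on different sides of Cdh1F/F;Trps1+/+ for Tenm3, and at day 28 for Padi4 and Defb1. For Sdr16c6 both lay above it. Other members also lay above it in both genotypes. Bche was at 383 and 454 and Sdr16c5 at 76.7 and 71.0 in Cdh1+/F;Trps1F/F organoids at day 14. Members were not counted by side, and the cause was not tested.

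Some organoid calls rested on single libraries. At day 14, 11 of 36 called members lost the call when 1 of the 12 libraries was left out (Pde1c, Dpyd, Gsta3, Mx1, Pogk, Gpr126, Bnc2, Lrfn1, Krba1, P2ry10 and Pde8b; adjusted p 0.052 to 0.259). Genes silent in sgTrps1 that rose numbered 1 instead of 4 without the first Trps1+/+ library or without the first Trps1F/F library of that day. At day 28, 15 of 37 did (Casp14, Defb1, Gsta3, Mx1, Atp10b, Trpv6, Pogk, Tnfrsf22, Il1a, C9, Ptx3, Slmo1, Cnksr2, Arhgap28 and Pde8b; adjusted p 0.051 to 0.436). Without the second Trps1+/+ library of day 28, 5 instead of 10 genes silent in sgScr rose, and 3 instead of 5 silent in sgTrps1 rose without any 1 of the 4 libraries compared at that day. Members not named here kept their calls in every such fit.

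In tumors no member was called, nor was any of the 15085 genes tested (limma on means per mouse, 6 Trps1F/F mice against 3 Trps1+/+ mice, 0% called); 791 genes had an unadjusted p under 0.05, and 677 with each tumor taken as a sample. Of 51 members that passed the filter, 5 had an unadjusted p under 0.05 and an adjusted p of 0.803. They were Rec114 (log2 difference -2.78, SE 1.00), Ppic (-1.42, SE 0.52), Sod3 (-1.66, SE 0.67), Pde1c (2.47, SE 1.00) and Pogk (0.51, SE 0.22). A normalized count of 20 or more in all 11 tumors was reached by 11 of 29 genes silent in sgScr and 20 of 29 silent in sgTrps1. Ppic, silent in the sgScr cell line, ran from 1148 to 5965 over the 8 Trps1F/F tumors and from 4838 to 10085 over the 3 others. Casp14 had a median of 0.488 over the 8 Trps1F/F tumors, with 1298 in 1 of them; the same tumor had the highest level of Sdr16c5 (557) and Sdr16c6 (717), which were at 2.87 or less in the other 7.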

How the data were processed

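RNA-seq of 33 mouse samples was used, in 4 tables. The submitters' processing notes name GRCm38, TopHat and HTSeq, without versions; the annotation is not stated in them. In each deposited table the authors give log2 values of counts that they had normalized within that table. The values equal log2(normalized count + 1): within 0.01 reads, or a share of 1e-05, 100% were whole reads times 1 factor per library. Symbols turned into dates (14 in each of them) were left out, as was 1 row without a symbol in the guide RNA and organoid tables (at most 5.16e-06% and 1.31e-05% of a library). In the organoid table most headers are shared by the replicates, which are numbered in column order as names only.

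Normalized counts were recovered as 2 to the power of the value, minus 1. Genes were kept for a test when the normalized count plus 1 was at least 10 in 3 libraries (trichostatin A), 2 (organoids) or 3 mice (tumors), and tested on the deposited log2 values with limma 3.58.1 in R 4.3.3 (trend), called at a Benjamini-Hochberg adjusted p under 0.05; the procedure was tested on simulated data. Fold changes on this scale understate those of low genes. Organoids were fitted in 1 model of 6 groups, and tumors were averaged per mouse. Labels do not say that replicates of cells and organoids came from separate cultures, so the p-values cover only the spread among the libraries, which may be technical. Replicates differed by more than sampling noise (chi-square over degrees of freedom of 1.51 or more). Replicate numbers of trichostatin A and DMSO libraries did not pair (correlations of -0.08, -0.003 and -0.06). Coordinates are from GENCODE M21. The members, the gene lists (11 of pathways or families and 7 of cell type markers) and the tests were chosen with earlier results of these data known. Named genes are the 12 highest per arm, the 6 highest per arm and DMSO class, members on a list or near another member, the 5 largest rises and falls per comparison, and the 3 nearest the limits; clone names were counted but named only on a list.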

Additional observations from a re-analysis of the deposited data

Results flagged for a closer look

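The difference between Cdh1F/F;Trps1F/F and Cdh1F/F;Trps1+/+ organoids was not the same at day 28 and day 14 in 12 of 57 tested members. This was the test of the change in that difference itself (limma, adjusted p under 0.05). The share lies near the background, in which 17.9% of 15860 genes were called. The log2 difference at day 28 minus that at day 14 was 2.11 for Il1a, 1.75 for Serpinb1b, 1.20 for Soat1 and 1.11 for Ptn. It was 0.82 for Ppic, 0.75 for Cacna2d1, 0.67 for Gpr126 and 0.52 for Ptx3. It was -1.21 for Padi4, -0.78 for Krba1, -0.72 for Zfp612 and -0.55 for Ctsf. Soat1 was at 1819 and 1727 in Trps1+/+ and 703 and 772 in Trps1F/F organoids at day 14, and at 374 and 469.9 against 347 and 462 at day 28, so the genotypes were apart at the first day and overlapped at the second. Krba1 was called higher at day 14 (0.33) and lower at day 28 (-0.45). When 1 of the 12 libraries was left out, 7 of the 12 lost the call in at least 1 fit (Ptn, Ctsf, Gpr126, Zfp612, Il1a, Ptx3 and Cacna2d1; adjusted p 0.050 to 0.207).

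Over the 8 Trps1F/F tumors, 19 of the 58 members had 1 tumor apart from the rest, in each case the highest. The limit on the gap to the next tumor over the range flags about 1 in 20 groups only for normally distributed values. It was applied to normalized counts without logs, where that rate is not known, and the share over all genes was not counted. The members are not independent of each other, and 3 of the 8 tumors came from 1 mouse. In 1 tumor this held for 6 genes silent in sgScr: Casp14 at 1298 (next highest tumor 4.20), Sdr16c6 at 717 (2.10), Sdr16c5 at 557 (2.87), Defb1 at 129.7 (26.4), Rec114 at 98.3 (23.5) and Serpinb1b at 10.8 (4.50). Another tumor was apart for 7 members. They included the 4 members of the interferon list, with Oas3 at 1179 (400.05), Mx1 at 895 (276), Oas1a at 799 (256) and I830012O16Rik at 549 (83.5). The others in that tumor were the class I gene H2-T24 at 684 (169), Bnc2 at 868 (332) and Slmo1 at 56.6 (11.8). In 1 further tumor Ptx3 was at 3748 (1457) and Il1a at 324 (91.0). In 4 more tumors 1 member each was apart, with Padi4 at 2907 (1272), Tenm3 at 1033 (503), Slc18b1 at 746 (357) and Cnksr2 at 11.3 (4.91).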

How the results depend on the processing

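The number of silent genes follows the limits. With 5 or less as silent it was 52 for sgScr and 57 for sgTrps1, with 0 reads 10 and 10, with 10 or more as present 55 and 51, and with 50 or more 9 and 15. With 1 library per arm left out it ran from 39 to 46 and from 39 to 41. With DMSO limits of 5 and 10, 12 genes silent in sgScr were silent and 7 between, and 3 silent in sgTrps1 were silent and 4 between; leaving out a DMSO library gave 5 to 8 silent genes of the sgScr arm. With trichostatin A, 9 genes silent in sgScr rose with no filter. In organoids, leaving out 1 library gave 1 to 5 rising genes silent in sgTrps1 at day 14, and at day 28 5 to 10 rising genes silent in sgScr and 3 to 5 silent in sgTrps1. With the 4 libraries of day 28 alone these were 6 and 3. Quantile normalization gave 3 rising and 9 falling genes silent in sgTrps1 at day 28. For the difference between days, leaving out 1 library gave 0 to 4 falling genes silent in sgScr, 1 to 4 rising and 2 to 5 falling silent in sgTrps1, and voom, added after seeing the data, gave 3 falling genes silent in sgScr. The cause of these shifts was not tested, apart from the fewer libraries or genes that a setting holds. None of the members called with trichostatin A or in organoids changed sign under the alternatives run for them; members without a call were not followed. With the replicate number of the trichostatin A and DMSO libraries as a replicate block, 5 and 6 genes silent in sgScr and 10 and 11 silent in sgTrps1 rose and fell, as without it. No paired analysis was possible in organoids because both Cdh1F/F;Trps1+/+ columns of a day carry the same replicate number, nor in tumors, whose labels share none. The planned count-model tests were not run, since the deposited values are log2. Depth limits the members with few reads, whose differences were often not detectable.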
